A study of Saccharomyces cerevisiae with 15 samples.

Results

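The 33 genes described here code for the protein subunits of the budding yeast 26S proteasome and for Rpn4, the transcription factor that drives their expression. They were taken by name from the known composition of the complex. They comprise 7 genes for alpha subunits and 7 for beta subunits of the 20S core particle, 6 for ATPases and 4 for other subunits of the base of the 19S regulatory particle, 8 for subunits of its lid, and RPN4. All 33 were among the 7126 genes of the table and among the 6474 that were tested. The study measured polyadenylated RNA from Saccharomyces cerevisiae grown at 30 °C in the rich medium YPD without treatment, in 5 groups of 3 libraries each. The wild type (WT) was the strain MHY2972, labelled MATa with his3, leu2, ura3 and lys2 deletions. The ulp2 mutant (MHY5033) lacked the SUMO protease Ulp2, the slx5 mutant (MHY7919) lacked a subunit of the Slx5-Slx8 ubiquitin ligase that recognises SUMO-modified proteins, and the set1 mutant (MHY8915) lacked the histone H3 lysine methyltransferase Set1. The ulp2 slx5 double mutant (MHY9109) lacked both Ulp2 and Slx5. All 4 mutants were labelled MATalpha with his3, leu2, met15, ura3 and lys2 deletions, so WT differed from every mutant in labelled mating type and labelled met15 marker. Each genotype was a single strain, and nothing in the labels says that the 3 libraries of a group came from separate cultures. The p-values therefore measure the spread between these libraries, which may be technical.

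The proteasome degrades proteins that carry ubiquitin chains. Its barrel-shaped core holds the proteolytic sites inside rings of beta subunits, capped by rings of alpha subunits that gate entry. The regulatory particle binds ubiquitin and removes it, and its ATPase ring unfolds the substrate and feeds it into the core. In budding yeast the subunit genes are controlled together by Rpn4, which binds the proteasome-associated control element upstream of them. Rpn4 is itself a short-lived substrate of the proteasome, so its protein accumulates when proteolytic capacity falls short.

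The control element, searched as GGTGGCAAA on both strands within 300 bases before the start codon in the R64 genome of RefSeq, was present in the promoters of 27 of the 32 subunit genes. Over all 6001 promoters of that length it was present in 73, or 1.22%. The stretches below are shown because they belong to 7 of the subunit genes that were among the 3 largest rises in at least 1 mutant. Each is 49 bases, read 5′ to 3′ on the strand of its gene, with the element in capitals (TTTGCCACC is the same element on the opposite strand). The positions in the order shown are chrVII:999216-999264 (minus strand), chrVII:475327-475375 (minus), chrXIII:86831-86879 (minus), chrXI:174038-174086 (plus), chrVIII:164828-164876 (minus), chrVI:249949-249997 (minus) and chrII:141140-141188 (plus).
PUP2: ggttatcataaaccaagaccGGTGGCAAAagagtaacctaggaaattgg
SCL1: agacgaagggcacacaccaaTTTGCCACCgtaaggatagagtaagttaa
PRE8: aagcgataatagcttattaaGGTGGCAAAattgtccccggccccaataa
RPT1: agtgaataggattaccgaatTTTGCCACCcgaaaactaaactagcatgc
RPN1: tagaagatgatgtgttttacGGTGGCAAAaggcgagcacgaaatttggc
PRE4: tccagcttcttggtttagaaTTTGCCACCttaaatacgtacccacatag
PRE7: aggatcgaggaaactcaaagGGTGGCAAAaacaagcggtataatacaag

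The promoters of PRE5, PUP1, RPN8, RPN10 and RPN13 held no exact match, and each held a version with 1 mismatch. A match with 0 or 1 mismatch was found in 464 of all promoters, or 7.73%. These are shown in the same way because PRE5 and RPN13 changed strongly in single strains and RPN8 was called higher in none. Their positions are chrXIII:901542-901590 (plus strand), chrXII:965646-965694 (minus), chrXV:817075-817123 (minus), chrXV:631881-631929 (minus) and chrVIII:498958-499006 (plus). A match is a description of the letters in the window and not evidence of binding.
PRE5: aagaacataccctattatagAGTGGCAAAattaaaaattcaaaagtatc
RPN13: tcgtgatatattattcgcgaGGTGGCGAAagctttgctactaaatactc
RPN8: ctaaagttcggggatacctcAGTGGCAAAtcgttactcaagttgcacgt
PUP1: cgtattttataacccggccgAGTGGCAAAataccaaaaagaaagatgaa
RPN10: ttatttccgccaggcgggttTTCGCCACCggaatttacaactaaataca

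The exact elements lay close to the genes. The base of the element nearest the 5′ end was 84 to 183 bases before the start codon, with a median of 120, and 19 of the 27 were on the gene's own strand. The promoter of RPN4 itself, at chrIV:416709-417008 on the minus strand, held no match, and its closest stretch differed at 3 bases. It is printed in full because RPN4 rose in every mutant.
RPN4: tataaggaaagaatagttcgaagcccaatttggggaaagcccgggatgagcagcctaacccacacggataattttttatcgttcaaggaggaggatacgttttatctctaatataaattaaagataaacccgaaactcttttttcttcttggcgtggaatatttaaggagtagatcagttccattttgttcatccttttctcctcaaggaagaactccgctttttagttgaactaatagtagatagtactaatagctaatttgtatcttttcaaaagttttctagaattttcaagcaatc

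**Figure D1:**
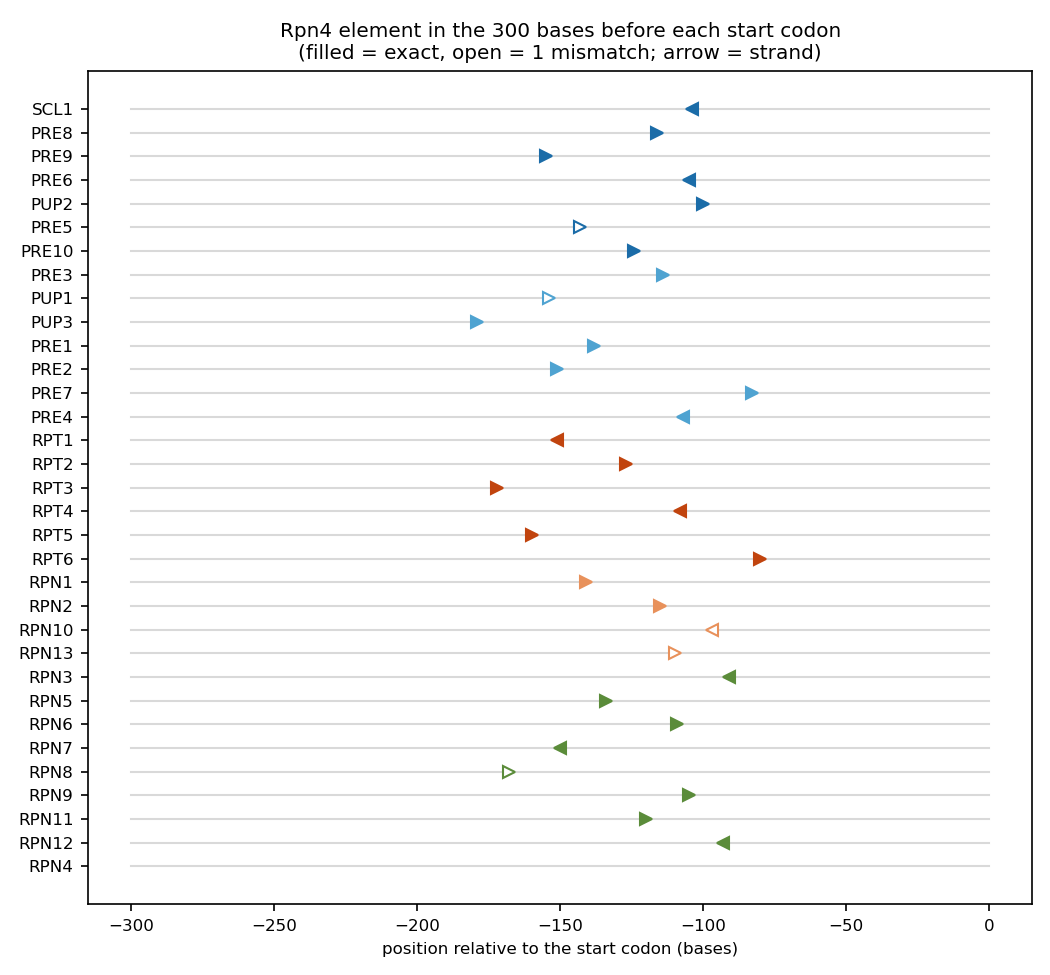
Position of the control element in the promoters of the proteasome genes, in bases before the start codon on the horizontal axis, with 1 row per gene. Filled marks are exact matches, open marks have 1 mismatch, and arrows give the strand. The exact matches fall between 84 and 183 bases before the start codon.

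Across the 15 libraries the summed FPKM (fragments per kilobase of transcript, scaled to the mapped fragments of the library) ran from 1213830 to 1761580, and the median gene stood at 37.4 to 40.1 FPKM. The deleted gene was at or near 0 in each mutant, with ULP2 at 28.9 to 32.5 FPKM in WT against at most 0.0691 in ulp2 and 0.0457 in the double mutant. SLX5 stood at 27.3 to 33.5 in WT against at most 0.0622 in slx5 and 0.0764 in the double mutant, and SET1 at 24.6 to 31.4 in WT against at most 0.125 in set1. The libraries labelled double mutant went against their mating type label: the summed FPKM of 4 genes specific to a cells was 7309 to 8614 there and 13018 to 15812 in WT, against at most 1009 in the other mutants, and 4 alpha-specific genes summed to at most 62.1 there against at least 6218 in ulp2, slx5 and set1. Marker genes also departed from the labels. LYS2 was expressed at 34.7 to 47.8 FPKM in ulp2, slx5 and the double mutant, and at no more than 0.128 in WT and set1. MET17, the gene also called MET15, stood at 224 to 329 in ulp2, set1 and the double mutant. It was at 120 to 153 in WT and at 0.359 to 1.06 in slx5. MET17 thus set slx5 apart from every other strain, and differences between slx5 and another strain cannot be told apart from that marker. By expression, then, WT and the double mutant shared one mating type and the 3 single mutants the other, and a comparison of a single mutant with WT cannot be told apart from a comparison of mating types.

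RPN4 (YDL020C) transcript rose in all 4 mutants. It stood at 55.6, 54.5 and 52.8 FPKM in the 3 WT libraries, at 73.6, 76.6 and 80 in ulp2 and at 70, 67.7 and 71.6 in slx5. In set1 it reached 73.1, 69.3 and 67.3 FPKM, and in the double mutant 76.6, 72.7 and 80.1. Every mutant library lay above every WT library. On the log2(FPKM + 1) scale used for every difference below, RPN4 was higher than in WT by 0.49 ± 0.051 (SE, n = 3 libraries a group) in ulp2 (adjusted p = 3.89e-06) and by 0.48 in the double mutant (adjusted p = 3.16e-06). It was higher by 0.35 in slx5 (adjusted p = 7.7e-05) and by 0.36 in set1 (adjusted p = 0.000143). All tests come from limma, fitted to all 6474 genes and all 15 libraries, with Benjamini-Hochberg adjustment within a comparison, and genes with an adjusted p under 0.05 count as called. The 4 comparisons share the WT libraries, so they are not independent of each other. In cultures measured in bulk, more transcript in every cell and more cells with the transcript cannot be told apart.

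The strains that express alpha-specific genes could be compared with each other without a change of mating type. Against set1, RPN4 in slx5 differed by -0.0026 (95% interval -0.11 to 0.11) and was not called. RPN4 in ulp2 stood 0.13 above set1 (adjusted p = 0.0455). That call rested on single libraries, since the difference without ulp2 replicate 2 was 0.10, without ulp2 replicate 1 0.13, without set1 replicate 1 0.13 and without set1 replicate 2 0.11, none of them called. With each value centred on the median of its chromosome arm (arm centring, an alternative chosen after seeing the data), it was 0.25 with a call. Between the strains that express a-specific genes, the double mutant and WT, the rise was the 0.48 given above. By expression the double mutant and WT also differed in markers. LYS2 stood at 34.7 to 38.4 FPKM against at most 0.0647, and MET17 at 224 to 234 against 120 to 153. The genotype and these markers cannot be told apart in that comparison. RPN4 lies on the left arm of chromosome IV (chrIV:415113-416708, minus strand, R64), 12.4 kb from SLX5, and does not overlap another annotated gene. The median difference of its arm was -0.09 in ulp2, -0.03 in slx5, 0.02 in set1 and -0.09 in the double mutant, so the arm as a whole did not move with RPN4. RPN4 had the lowest WT level of the 33 genes, at 54.3 ± 1.38 FPKM (SD, n = 3).

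**Figure D2:**
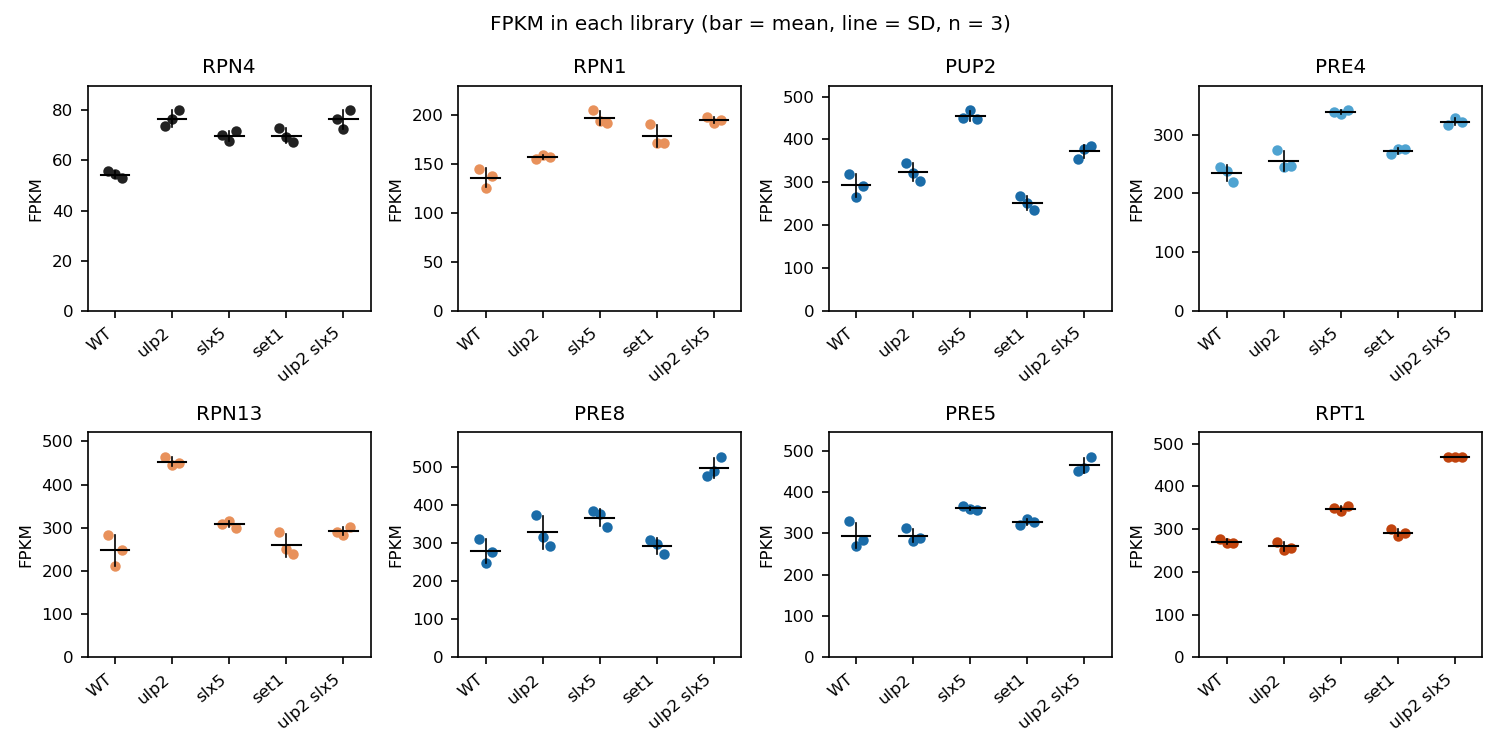
FPKM in each library (points) for 8 of the genes, by strain, on axes that start at 0, with bars for the group mean and lines for the SD (n = 3 libraries). RPN4 and RPN1 stand above WT in every mutant, RPN13 reaches 444 to 465 FPKM in ulp2 alone, and PRE8, PRE5 and RPT1 are highest in the double mutant.

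Among the 32 subunit genes the strains differed widely in how many rose. In slx5, 25 of the 33 genes including RPN4 were higher than in WT and 0 were lower, where 25.6% of all tested genes were called higher and 25.1% lower. In the double mutant 20 were higher and 0 lower, where 32.9% of all tested genes were called higher and 29.4% lower. In set1 13 were higher and 1 lower (22.1% and 15.2% of all tested genes), and in ulp2 6 were higher and 2 lower (27.8% and 26.7%). Without WT replicate 1, 9 genes in all were called in set1. At an unadjusted limma p under 0.05, 0 genes were lower in slx5 and 1, RPT4, in the double mutant. As deposited, the ulp2 share was below the background in each direction, but the 10 higher genes after arm centring stood against a background of 25.4%, so that placing depends on the setting. The median difference of the 33 genes was 0.32 in slx5, 0.23 in the double mutant, 0.12 in set1 and 0.03 in ulp2, beside -0.0022, 0.03, 0.01 and -0.02 for all tested genes. In slx5 all 33 differences were above 0, from 0.03 to 0.64. With each library scaled to the same median, the double mutant had 14 higher and 3 lower (RPT2, RPT4 and RPN8), and with quantile normalization 18 and the same 3. In ulp2 quantile normalization gave 11 higher and 3 lower, arm centring gave 10 and 0, and leaving out WT replicate 0 gave 11 and 0. The shares of all tested genes above do not hold for other settings, here or below. With quantile normalization the higher part of all calls went from 51.0% to 39.2% in ulp2 and from 52.8% to 39.9% in the double mutant. Median scaling took the latter to 45.2%. With arm centring 24.5% of genes with an assigned arm were lower in ulp2.

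**Figure D3:**
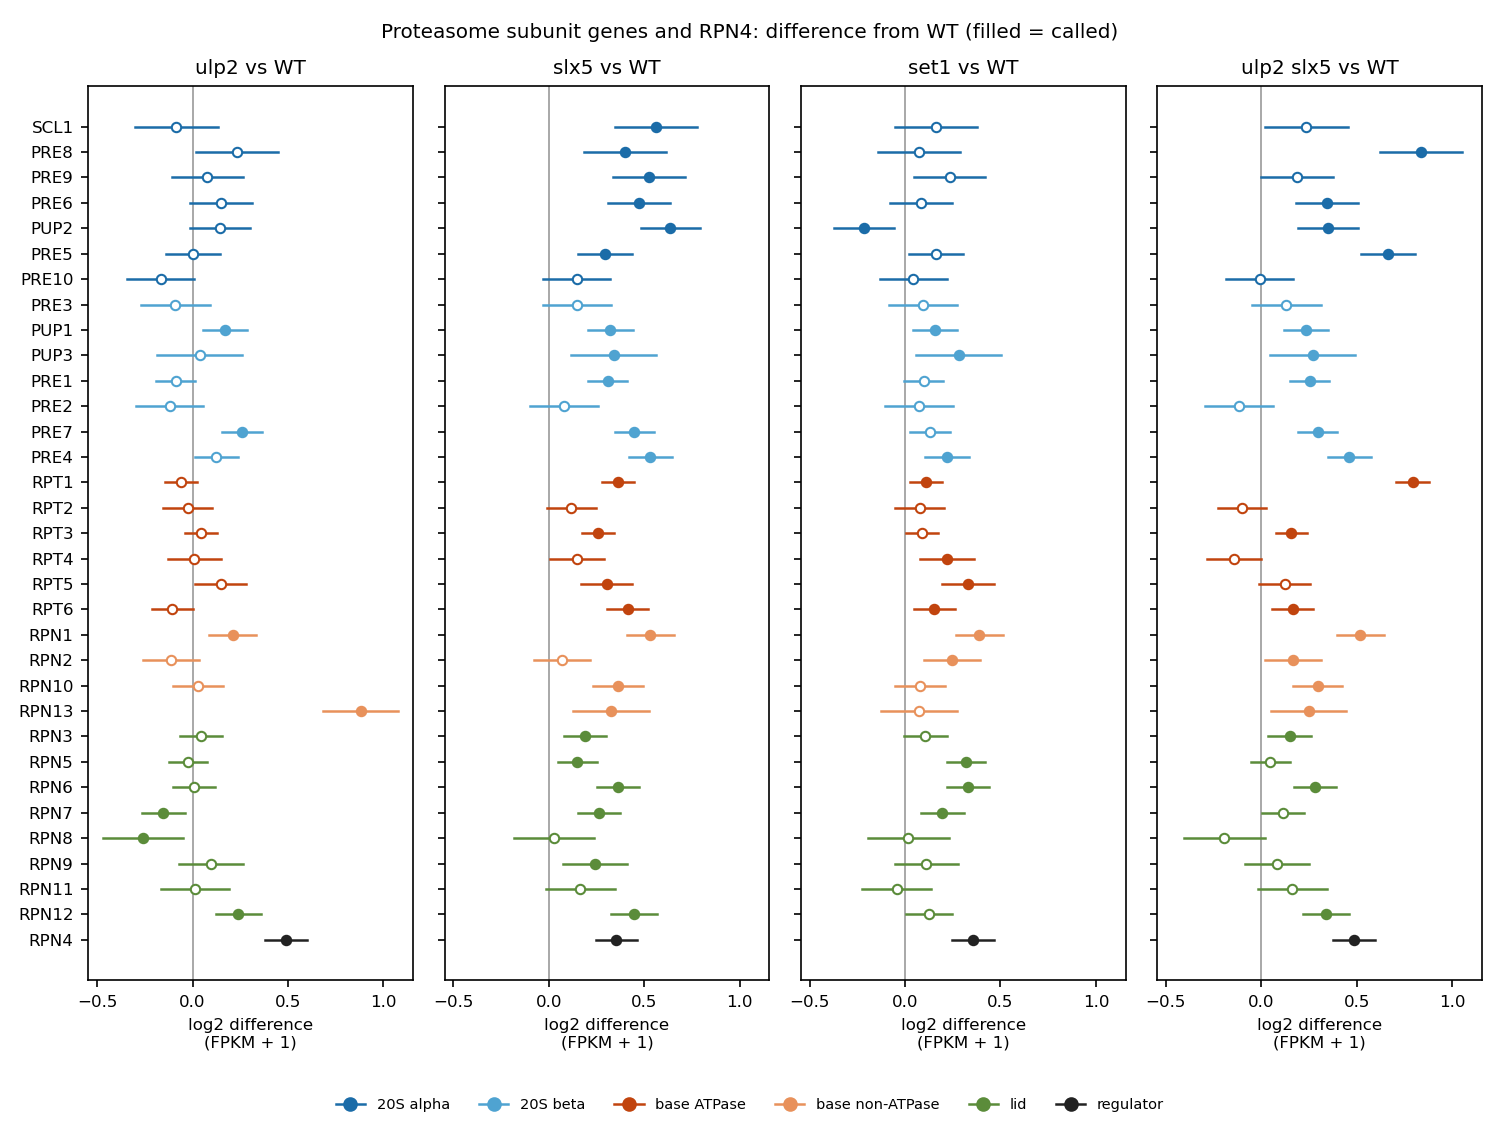
Difference from WT on the log2(FPKM + 1) scale for each of the 33 genes, in 1 panel per mutant, with lines for the 95% confidence interval and colours for the class of subunit. Filled points passed the test. In slx5 all 33 points lie above 0 and 25 are filled, and in ulp2 8 are filled, led by RPN13 at 0.88.

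Taken gene by gene, RPN4, PUP1 and RPN1 were called higher in all 4 mutants, 8 genes in 3 of them, 12 in 2, 4 in 1 and 6 in 0. Such joint counts were not made over all tested genes, so there is no background to set these numbers against. The shared WT libraries also tie the 4 comparisons together. PUP1, which carries the trypsin-like active site, lost its call in ulp2 without WT replicate 1 (0.15) or ulp2 replicate 1 (0.16), and in set1 without WT replicate 0 (0.14), WT replicate 1 (0.14), set1 replicate 0 (0.11) or set1 replicate 1 (0.15). The genes without a call in either direction in any mutant numbered 5, namely PRE10, PRE3, PRE2, RPT2 and RPN11. Of these PRE2 carries the chymotrypsin-like active site of the core and had the highest WT level, 499.6 ± 57.5 FPKM (SD, n = 3), followed by PRE9 at 487 ± 64.8, RPN8 at 423 ± 62.2 and PRE1 at 417 ± 27.4. The SDs of these neighbours overlap, and their order is not resolved. At the other end RPN7 stood at 186 ± 10.5 and RPN1 at 136 ± 9.78 FPKM, a gap larger than their SDs.

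The alpha subunits of the core had the largest median rise in slx5, 0.47, with 6 of 7 higher, where 25.6% of all tested genes were called higher. Arm centring changed that order: the slx5 medians were then 0.35 for the alpha subunits, 0.39 for beta, 0.38 for the other base subunits, 0.28 for the lid and 0.22 for the ATPases. PUP2 (YGR253C) stood at 320.3, 266 and 292 FPKM in WT and at 450.0, 469 and 447 in slx5. All 3 slx5 libraries lay above all 3 WT libraries, a difference of 0.64 ± 0.072 (adjusted p = 1.01e-05). In the double mutant PUP2 was at 356, 378 and 385 FPKM, between those groups and 0.35 above WT. In set1 it was at 268, 252 and 235, the one subunit called lower there, at -0.22 (adjusted p = 0.0322). The lowest WT library and the highest set1 library overlapped, and the call was lost without WT replicate 0 (-0.15), WT replicate 2 (-0.22), set1 replicate 1 (-0.22) or set1 replicate 2 (-0.17).

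SCL1 (YGL011C), another alpha subunit, stood at 311, 327 and 364 FPKM in WT and 429, 529 and 525 in slx5. Its rise of 0.56 (adjusted p = 0.000451) was again free of overlap, although slx5 replicate 0 stood well below the other two slx5 libraries. PRE9, the alpha subunit that yeast can live without, went from 559, 433 and 468 FPKM to 713, 682 and 697, higher by 0.53. Neither SCL1 nor PRE9 was called in the double mutant, where their differences from WT were 0.24 and 0.19. Each was called there in a fit that left out 1 WT library: without WT replicate 2 SCL1 differed by 0.30, and without WT replicate 0 PRE9 differed by 0.29. As deposited, PRE8 and PRE5 rose further in the double mutant than in slx5. After arm centring the order was the other way, with PRE8 at 0.36 against 0.41 in slx5 and PRE5 at 0.20 against 0.32. The centred differences between the double mutant and slx5 were not called. PRE8 (YML092C) stood at 312, 249 and 277 FPKM in WT, 386, 376 and 342 in slx5 and 477, 490.2 and 529 in the double mutant, higher than WT by 0.40 and 0.84 (adjusted p = 0.00461 and 1.04e-05). The PRE8 groups did not overlap, and the double-mutant libraries stood highest. PRE5 (YMR314W) likewise went from 328, 270.1 and 284 FPKM to 365, 359 and 356 in slx5 and 452, 457 and 485 in the double mutant, a rise of 0.66 in the latter (adjusted p = 1.99e-06). In ulp2, where 27.8% of all tested genes were called higher and 26.7% lower, 0 of the alpha subunits were called by limma. Among them 1, PRE8, had an unadjusted limma p under 0.05. PRE8 differed there by 0.23 and was called without WT replicate 0 (0.31) or ulp2 replicate 2 (0.31).

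Of the 7 beta subunits, 5 were higher in slx5, 5 in the double mutant, 3 in set1 and 2 in ulp2, and 0 were lower, also at an unadjusted limma p under 0.05. The shares of all tested genes called higher were 25.6%, 32.9%, 22.1% and 27.8% in that order, so 2 of 7 in ulp2 was near the background. The shares called lower were 25.1%, 29.4%, 15.2% and 26.7%. PRE4 (YFR050C) stood at 245, 239 and 219 FPKM in WT, 339, 335 and 342 in slx5 and 317, 328 and 321 in the double mutant. The slx5 and double-mutant libraries all exceeded WT, by 0.53 (adjusted p = 2.65e-06) and 0.46 (adjusted p = 6.76e-06). In set1 PRE4 was at 267, 276 and 275 FPKM, higher by 0.22, a call lost after arm centring at 0.089. PRE7 was the beta subunit with the largest rise in ulp2, from 365, 344 and 377 FPKM in WT to 422, 436 and 439.9. That rise of 0.26 (adjusted p = 0.000551) was accompanied by 469, 510.1 and 504 FPKM in slx5 and 441, 429 and 462 in the double mutant, all above the highest WT library. Calls differed among the active-site subunits: PUP1 was called higher in slx5 and in the double mutant (0.32 and 0.23), while PRE3, with the caspase-like site, differed by 0.15 and 0.13 and PRE2 by 0.08 and -0.12, without a call. A difference between these subunits was not tested.

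In the base, RPN1 (YHR027C), the large scaffold on which shuttle factors and the deubiquitinase Ubp6 dock, was the subunit that rose in all 4 mutants under every left-out library. It stood at 145, 126 and 138 FPKM in WT, 155, 159 and 157 in ulp2 and 191, 172 and 172 in set1. It was at 205, 194 and 192 FPKM in slx5 and 198, 192 and 195 in the double mutant. Every mutant library lay above every WT library, by 0.53 in slx5 (adjusted p = 5.86e-06), 0.52 in the double mutant (5.12e-06), 0.39 in set1 (0.000181) and 0.21 in ulp2 (0.00728). Of the 6 ATPases, 4 were higher in slx5, 4 in set1, 3 in the double mutant and 0 in ulp2, where 1, RPT5, had an unadjusted limma p under 0.05. The shares of all tested genes called higher were 25.6%, 22.1%, 32.9% and 27.8% in that order. RPT1 (YKL145W) stood at 277, 267 and 268 FPKM in WT and 349, 342 and 354 in slx5, and at 469.8, 469 and 469.5 in the double mutant, where the libraries were nearly equal. Its rise of 0.79 ± 0.039 there had the smallest adjusted p of any of the 33 genes in a comparison with WT, 2.78e-09. The left arm of chromosome XI, where RPT1 lies, had a median of 0.68 in the double mutant. After arm centring the rise of RPT1 there was 0.13, still called. RPT5 was the ATPase with the largest rise in set1, from 208, 182 and 202 FPKM to 272, 233 and 240.1 (0.33, adjusted p = 0.00111).

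RPN13 (YLR421C), a ubiquitin receptor of the base, had the largest rise of the 33 genes in ulp2. It stood at 283, 211 and 248 FPKM in WT and 465, 444 and 450.5 in ulp2, and the groups lay far apart. It was 309, 315 and 300.3 FPKM in slx5, 289.8, 250.1 and 238 in set1 and 289.6, 284 and 302 in the double mutant. The ulp2 rise was 0.88 ± 0.092 (adjusted p = 4.05e-06), and the double mutant was lower than ulp2 by 0.63 on the log2 scale (adjusted p = 6.99e-05). Against WT the double mutant was 0.25 higher (adjusted p = 0.0314), a call that was lost without WT replicate 1 (0.14), WT replicate 2 (0.25), double-mutant replicate 0 (0.25) or double-mutant replicate 2 (0.22).

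Of the 8 lid genes, 6 were higher in slx5 with a median of 0.22 (0.28 after arm centring), 3 were higher in the double mutant and 3 in set1. The shares of all tested genes called higher were 25.6%, 32.9% and 22.1% in that order. RPN6 (YDL097C), a lid scaffold, rose from 239.9, 219 and 237 FPKM in WT to 309.6, 284 and 282 in set1, higher by 0.33 (adjusted p = 0.000273), with slx5 and the double mutant at 0.36 and 0.28. The lid was the one class with called falls in ulp2, where 26.7% of all tested genes were called lower. RPN8 (YOR261C), the partner of the deubiquitinase subunit Rpn11, stood at 495, 392 and 383 FPKM in WT and 403, 333 and 323 in ulp2, which overlap. Its difference of -0.26 (adjusted p = 0.0373) was no longer called without WT replicate 0 (-0.14), ulp2 replicate 1 (-0.22) or ulp2 replicate 2 (-0.20), nor after arm centring (-0.16). RPN7 stood at 197, 176 and 185 FPKM in WT and 171, 168 and 163 in ulp2, without overlap, a difference of -0.15 (adjusted p = 0.0229) that was lost without WT replicate 0 (-0.11) or ulp2 replicate 2 (-0.13) and after arm centring (-0.051). Neither fall was called with only WT and ulp2 in the fit. RPN12 rose in ulp2 instead, by 0.24 (adjusted p = 0.00258), and in slx5 and the double mutant by 0.45 and 0.34.

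The median over the 32 subunit genes was 250.3 to 285 FPKM in the WT libraries, 260.3 to 287 in ulp2, 274 to 305 in set1, 307 to 321 in the double mutant and 331 to 339.8 in slx5. No slx5 library and no double-mutant library overlapped WT on this measure, while the ulp2 libraries lay over the WT range. Within a library the highest subunit exceeded the lowest by 2.70 to 3.88 times. The 32 genes together took 0.577% to 0.656% of all FPKM in WT, 0.667% to 0.693% in ulp2, 0.591% to 0.694% in set1, 0.803% to 0.846% in slx5 and 0.844% to 0.872% in the double mutant. This share also moves with the summed FPKM, which differed between libraries.

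The study's title names an aneuploidy, so each gene was set beside the genes of its own chromosome arm. The subunit gene with the largest rise in ulp2, RPN13, and those with the 3 largest in the double mutant, PRE8, RPT1 and PRE5, lay on arms whose genes were shifted as a group. The next called subunit genes in ulp2 did not. PRE7, RPN12 and RPN1 lay on arms with ulp2 medians of -0.13, -0.12 and -0.11, and stayed called after arm centring at 0.35, 0.30 and 0.30. RPN13 lies on the right arm of chromosome XII (chrXII:965090-965560), whose 436 tested genes had a median difference of 0.78 in ulp2, and 19 of its 20 nearest tested neighbours were called higher with a median of 0.72. With values centred on the arm, RPN13 in ulp2 differed by 0.12 (adjusted p = 0.262) and was not called. RPT1 lies on the left arm of chromosome XI (chrXI:174213-175616), whose 212 genes had a median of 0.68 in the double mutant, and 17 of 20 neighbours were higher. PRE8 (chrXIII:85987-86739) and PRE5 (chrXIII:901709-902413) lie on the left and right arms of chromosome XIII, with medians of 0.49 over 129 genes and 0.47 over 329 genes in the double mutant. For each of them 17 of 20 neighbours were higher. After arm centring these 3 remained called in the double mutant at smaller size, RPT1 by 0.13 (adjusted p = 0.00899), PRE8 by 0.36 (0.00486) and PRE5 by 0.20 (0.0215). In slx5 the arms of chromosome VII had medians of 0.18 (left) and 0.19 (right). The chromosome VII genes SCL1 and RPT6 on the left and PUP2 and PRE9 on the right were at 0.56, 0.41, 0.64 and 0.53, and after centring at 0.35, 0.20, 0.41 and 0.30, all still called. RPN1 rose while the median of its arm was -0.10 in slx5 and -0.14 in the double mutant. Medians of that size were not particular to its arm: the right arm of chromosome IV had -0.11 and -0.16, and that of XV -0.09 and -0.15.

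Arm centring left the slx5 and double-mutant counts at 29 and 23 higher and 0 lower, where 27.1% and 30.5% of the 5842 genes with an assigned arm were called higher. The 33 genes lie on 13 chromosomes, with 6 each on IV and XV and 1 each on XI and XII.

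**Figure D4:**
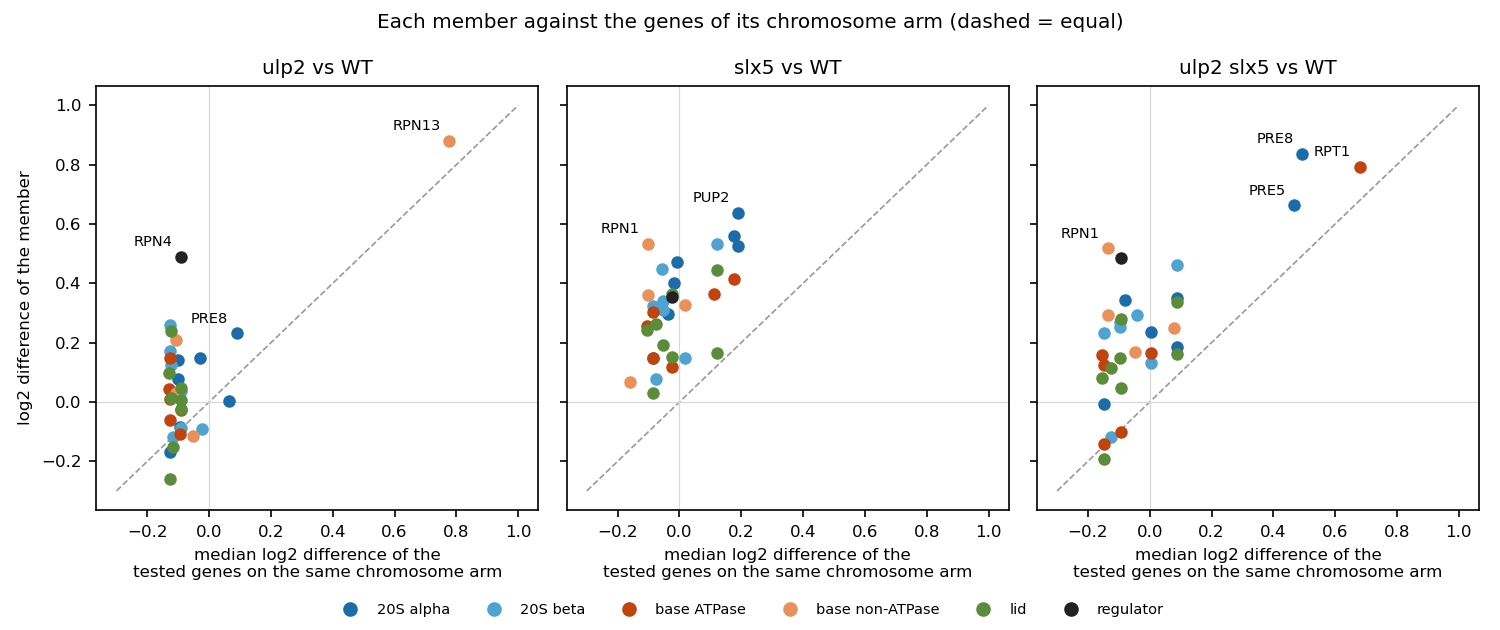
Each gene's difference from WT (vertical axis, log2) against the median difference of the tested genes on its chromosome arm (horizontal axis, log2) in ulp2, slx5 and the double mutant. Points on the dashed line moved as their arm did. RPN13 in ulp2 and RPT1 in the double mutant lie near the line at the far right, while RPN4 and RPN1 lie well above it.

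The mutants were also compared with each other. The double mutant exceeded ulp2 in 16 genes and fell below it in 1, RPN13, where 26.4% of all tested genes were called higher and 26.2% lower, and quantile normalization gave 14 and 3. RPT1 led with 0.85, followed by PRE5 at 0.66 and PRE8 at 0.61. After arm centring RPT1 stood at 0.099 and PRE8 at 0.22, neither called, PRE5 at 0.27 with a call, and RPN13 at 0.064 without one. The double mutant exceeded slx5 in 3 genes, PRE8 (0.44), RPT1 (0.43) and PRE5 (0.37), and fell below it in 9, where 17.3% of all genes were higher and 13.4% lower. The 3 higher genes are those on chromosomes XI and XIII, and after arm centring their differences were -0.05, -0.08 and -0.12, none of them called. Only 3 genes in all were then called, RPN4 higher at 0.22 and PRE7 and RPT4 lower. Without double-mutant replicate 0, 7 genes in all were called. Among the 9 lower genes as deposited were PUP2 at -0.29, PRE9 at -0.34 and RPT6 at -0.25, which arm centring took to -0.14, -0.19 and -0.058 without a call. These comparisons of the double mutant with a single mutant also cross mating types by expression, which cannot be told apart from the genotype.

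The model also asked whether losing Slx5 changed these genes by a different amount when Ulp2 was absent. The difference between those slx5 effects, the interaction, was called above 0 for 2 genes and below 0 for 12, where 20% of all tested genes were called above and 21.8% below, and arm centring gave 0 and 10. RPN4 was among the 12, at -0.36 (adjusted p = 0.00131): it rose by 0.35 on loss of Slx5 from WT, while the double mutant stood -0.01 from ulp2. This contrast sets WT and the double mutant against the 2 single mutants, which is also the split of the libraries by expressed mating type, and the interaction and the mating type cannot be told apart.

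Between strains that express the same mating-type genes slx5 again had more of these genes higher than lower. Relative to set1, slx5 was higher in 15 genes and lower in 1 (20.5% and 22.7% of all tested genes). PUP2 differed most, by 0.85 (adjusted p = 1.56e-06), followed by SCL1 at 0.40 and PRE6 at 0.39, all alpha subunits. The exception was the lid gene RPN5, lower by 0.17 on the log2 scale, which in set1 stood 0.32 above WT. After arm centring SCL1 stood at 0.19 and RPN5 at -0.12, neither called, and the count was 16 higher and 0 lower. Relative to set1, ulp2 was higher in 4 genes and lower in 12 (22.8% and 26% of all tested genes), with RPN2, RPN5 and RPN7 lower by 0.36, 0.35 and 0.35 on the log2 scale (RPN5 by 0.23 after arm centring). That split was 2 and 14 with median scaling, 6 and 10 with quantile normalization and 5 and 6 with arm centring, and 9 genes in all were called without ulp2 replicate 2 and 10 without set1 replicate 0. The set1 strain carries changes of its own, so these comparisons are between mutants and not with an unmutated control. By expression slx5 and set1 also differed in the LYS2 and MET17 markers, and ulp2 and set1 in LYS2.

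Whether the letters of the exact control element went with a change could be set out within the subunit genes. In slx5, 20 of the 27 subunit genes with GGTGGCAAA were called higher, with a median of 0.31, and 4 of the 5 without it, with a median of 0.32. In the double mutant these numbers were 15 of 27 (median 0.17) and 4 of 5 (median 0.25). In set1 they were 11 of 27 (median 0.12) and 1 of 5 (median 0.08), and in ulp2 3 of 27 (median 0.01) and 2 of 5 (median 0.03). The difference between these sets was not tested, and each of the 5 has a near match. Outside the 33 genes, 45 tested genes carried the element, and 26 of them were called higher and 5 lower in slx5 (median 0.41) and 31 and 7 in the double mutant (median 0.39). In set1 the numbers were 19 and 6, and in ulp2 17 and 8. The shares of all tested genes called higher and lower were 25.6% and 25.1% in slx5, 32.9% and 29.4% in the double mutant, 22.1% and 15.2% in set1 and 27.8% and 26.7% in ulp2. Of the 34 other genes of the pathway described next, 5 carried it, namely ECM29, YAP1, UBI4, UBA1 and CDC48, and these are among the 45. Others of the 45 lie beside a proteasome gene on the opposite strand, such as MPO1 beside SCL1 and NOP14 beside RPN5. A single element can then fall in the windows of both neighbours, so the 45 are not all separate from the 33. The stretches of UBI4 and ECM29 are shown because both are among the largest changes of that list, at chrXII:65339-65387 (minus strand) and chrVIII:39933-39981 (plus strand).
UBI4: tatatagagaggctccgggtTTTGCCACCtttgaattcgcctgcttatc
ECM29: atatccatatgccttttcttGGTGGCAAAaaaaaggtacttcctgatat

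The 34 other genes of the pathway comprised assembly chaperones, proteasome-associated factors, enzymes that turn over Rpn4, regulators of RPN4 transcription, ubiquitin genes and shuttle factors. In slx5 20 were higher and 6 lower, in the double mutant 19 and 3, in ulp2 16 and 2 and in set1 12 and 5, to be read against the same shares of all tested genes as just given (25.6% and 25.1%, 32.9% and 29.4%, 27.8% and 26.7%, 22.1% and 15.2%). With median scaling the double mutant had 17 and 6, and with quantile normalization set1 had 10 and 8. Their medians were 0.27, 0.28, 0.14 and 0.08. In ulp2 the pathway genes were thus called higher more often, in 16 of 34, than the proteasome genes, in 6 of 33, a contrast that was not tested. Its size depends on the setting: the counts were 15 against 10 after arm centring and 16 against 11 with quantile normalization. With only WT and ulp2 in the fit they were 10 against 6.

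UBI4, which encodes a chain of ubiquitin repeats and supplies ubiquitin under stress, had the largest change in every mutant. It stood at 103, 87.5 and 114 FPKM in WT, 595, 499 and 479 in ulp2, 577, 517 and 514 in slx5, 189, 222 and 199 in set1 and 553, 569 and 604 in the double mutant. All mutant libraries lay above WT, with ulp2, slx5 and the double mutant in one range and set1 in between. WT and set1 were also the strains without LYS2 expression, and the grouping of the other strains cannot be told apart from that marker. The differences were 2.36, 2.40, 0.999 and 2.50 in ulp2, slx5, set1 and the double mutant, with adjusted p-values from 5.79e-10 to 9.98e-06. The left arm of chromosome XII, where UBI4 lies, had a median of 0.82 in ulp2 and 0.02 in slx5, and UBI4 in ulp2 stood at 1.55 after arm centring. UBI4 shares its ubiquitin sequence with RPL40A, RPL40B and RPS31, which fuse ubiquitin to ribosomal proteins. How reads from the shared sequence were divided is not given in the sources used here, so the values of these 4 genes are uncertain.

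Genes that act on the assembled proteasome rose in several strains. ECM29, which binds the 26S particle, stood at 16.2, 15.1 and 17.3 FPKM in WT, 29.7, 29.9 and 28.3 in slx5 and 35.7, 35.2 and 35.1 in the double mutant. No library of these groups overlapped another group, and the rises were 0.82 and 1.08, with 0.59 in ulp2 and 0.62 in set1. Of the 4 proteasome-associated factors, all were higher in slx5 and set1, 3 were higher in each strain lacking Ulp2, and 0 were lower. The shares of all tested genes called higher and lower were 25.6% and 25.1% in slx5 and 22.1% and 15.2% in set1. They were 27.8% and 26.7% in ulp2 and 32.9% and 29.4% in the double mutant. After arm centring BLM10 lost its call in slx5 (0.11) and UBP6 in set1 (0.082). Among the chaperones of base assembly, TMA17 rose from 45.6, 39.8 and 44.1 FPKM in WT to 98.2, 89.4 and 108 in slx5 and 110.3, 123 and 132 in the double mutant, higher by 1.17 and 1.47. NAS6 rose from 80.8, 53.5 and 80.1 FPKM to 139.6, 141 and 154 in slx5 (1.03, adjusted p = 1.37e-05). RPN14, in contrast, fell in all 4 mutants, by 0.55 in ulp2, 0.32 in slx5, 0.51 in set1 and 0.40 in the double mutant on the log2 scale, so the base chaperones did not move as one. Of the core chaperones, PBA1 rose by 1.22 in ulp2, on the right arm of chromosome XII with its median of 0.78, and by 0.46 after arm centring. PBA1 was also called higher in slx5 and the double mutant, at 0.55 and 0.61 after arm centring. In set1 PBA1 was not called (-0.16 after arm centring). UMP1, the chaperone that becomes the first substrate of the core it helps to complete, was not called in any mutant (0.05, 0.24, -0.07 and 0.10 in ulp2, slx5, set1 and the double mutant), although without WT replicate 1 it was called in slx5 at 0.34, and after arm centring at 0.25. SEM1, a small lid subunit outside the 33, was called in set1 alone, at -0.33 (adjusted p = 0.0174), and lost that call without WT replicate 1 (-0.27), set1 replicate 1 (-0.30) or set1 replicate 2 (-0.26). In ulp2 SEM1 differed by -0.18 and was called without ulp2 replicate 0, at -0.28.

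Genes around Rpn4 itself moved unevenly. UBR2, the ubiquitin ligase that targets Rpn4, stood at 7.69, 8.47 and 8.36 FPKM in WT, 15.7, 16.8 and 17.7 in ulp2 and 12.6, 12.8 and 13.4 in the double mutant. Neither mutant overlapped WT, and the rises were 0.95 and 0.60 (adjusted p = 2.84e-07 and 1.33e-05), the former on the shifted right arm of chromosome XII and at 0.19 after arm centring, still called. In slx5 and set1 the differences were 0.27 and 0.25, but quantile normalization gave -0.09 and 0.05, neither called, and 0.16 without a call in the double mutant. The set1 call was also lost without WT replicate 0, at 0.21. MUB1 and RAD6, the other Rpn4 turnover genes listed, did not move with UBR2 in every mutant. MUB1 was called lower in slx5 (-0.37) and set1 (-0.27), and the set1 call was lost in some fits with a single library left out. In the double mutant MUB1 was called higher at 0.22, and lower at -0.24 after arm centring. The higher call was lost with median scaling (0.14), with quantile normalization (0.14) and without WT replicate 0 (0.16) or double-mutant replicate 0 (0.21). RAD6 was called in slx5 alone, at 0.26, and not after arm centring (0.05). That call was also lost without WT replicate 1 (0.22), WT replicate 2 (0.23) or slx5 replicate 0 (0.22). YAP1, a stress factor that activates RPN4, was at 88.6, 94.1 and 89.6 FPKM in WT and 170.4, 179 and 169 in the double mutant, higher by 0.92 (adjusted p = 1.99e-08), on the left arm of chromosome XIII with its median of 0.49 (0.44 after arm centring, still called). HSF1 and PDR1, further activators of RPN4, were called in slx5 at 0.45 and 0.58 (HSF1 at 0.25 without a call and PDR1 at 0.37 with one after arm centring) and in the double mutant at 0.58 and 0.51. PDR3, the remaining regulator of RPN4 transcription in the list, went the other way. It was called lower in slx5 (-0.28) and in set1 (-0.21), where the call was lost in some fits with a single library left out. In the double mutant it differed by -0.12 without a call. In ulp2, where RPN4 stood 0.49 above WT, YAP1 was called higher at 0.22 (0.13 without a call after arm centring), and HSF1 and PDR1 differed by 0.15 and 0.00 without a call.

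**Figure D5:**
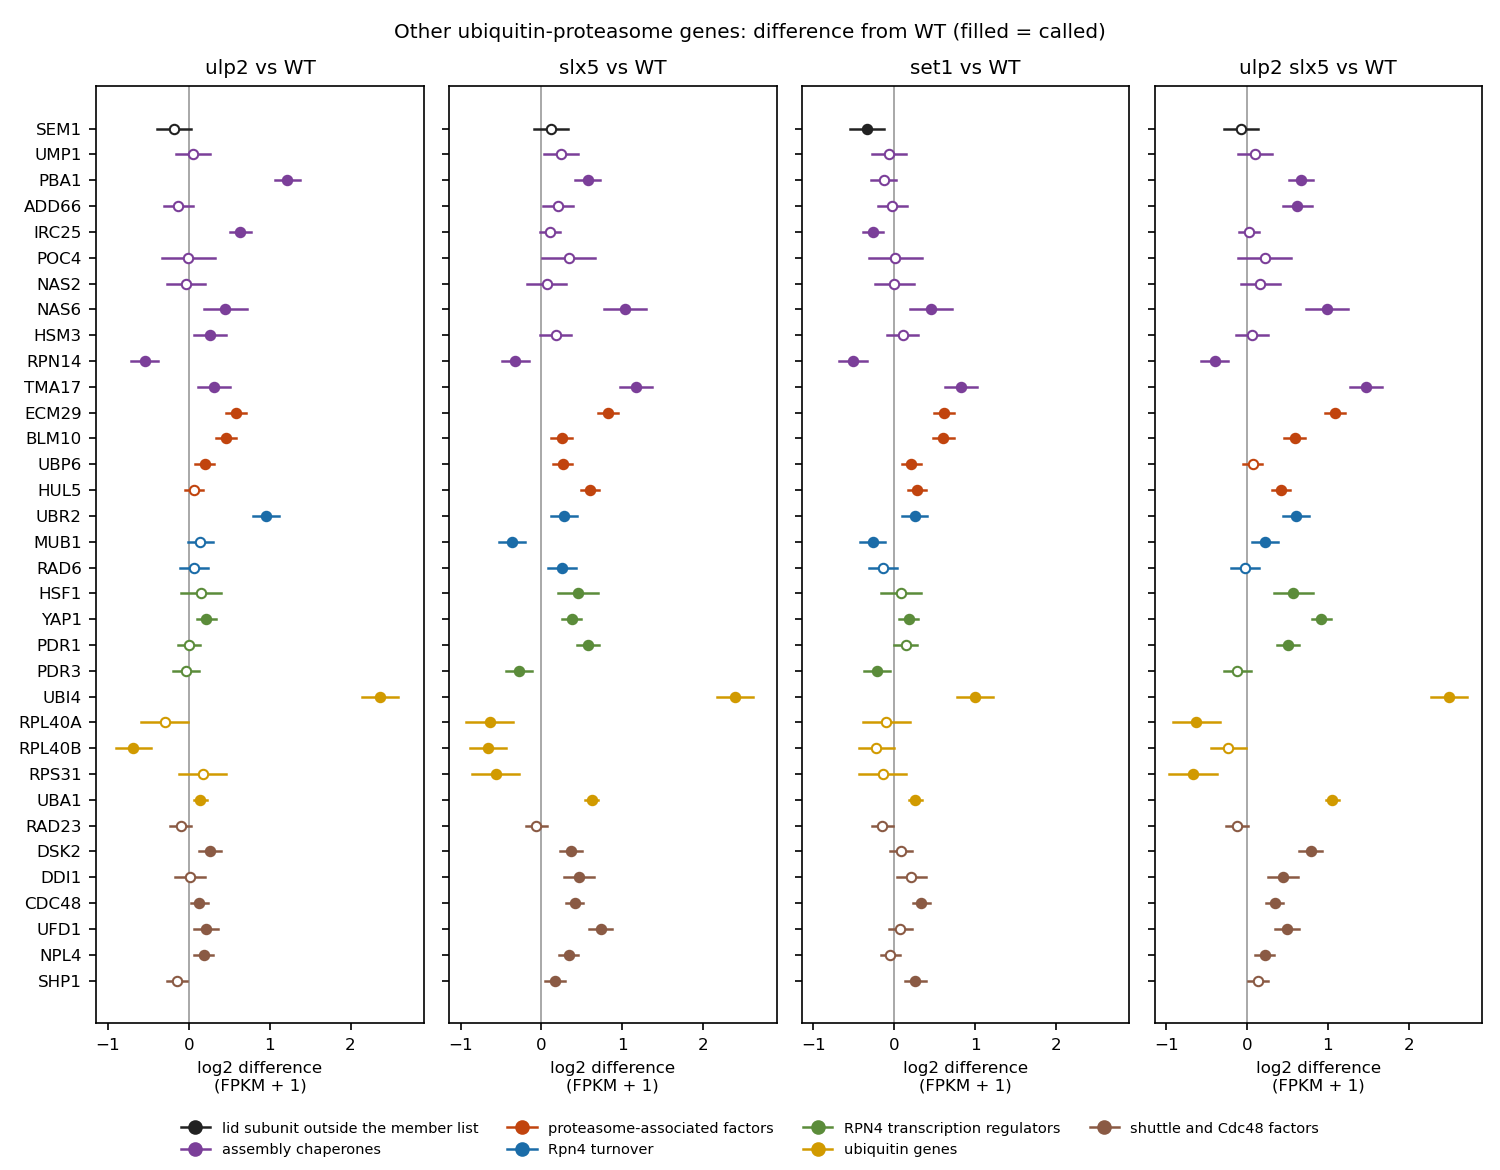
Difference from WT on the log2(FPKM + 1) scale for the 34 other pathway genes, in 1 panel per mutant, with lines for the 95% confidence interval and filled points for those that passed the test. UBI4 lies furthest to the right in every panel, and RPN14 lies below 0 in every panel.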

How the data were processed

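RNA-seq of 15 libraries, 3 in each of 5 strains, was analysed from the deposited FPKM table, which the authors made with TopHat2 2.0.12 and Cuffdiff on build R64, per the submitters' processing notes; the Cuffdiff version, the strand setting and the library totals are not given in the sources used here, so depth is unknown and its precision enters through the spread between libraries. Low values place relative depth between 0.461 and 1.04 of WT replicate 1. The 6474 of 7126 genes that reached 1 FPKM in 3 or more libraries were tested on log2(FPKM + 1), which understates changes of low genes, with limma 3.58.1 in R 4.3.3 (1 fit over 15 libraries, 10 residual degrees of freedom, variance trend, Benjamini-Hochberg adjustment in each of 9 comparisons, threshold 0.05). The procedure was tested on simulated data. Promoters and positions were read from the RefSeq R64 genome and annotation, to which 6048 genes matched. No 2 libraries held identical values. The rule for named genes took RPN4, the 3 largest called rises and falls in each comparison with WT, genes on chromosomes VII, XI, XII and XIII, the highest and lowest WT levels, and, of the pathway list, the 3 largest called changes per comparison with UMP1, SEM1, UBI4 and UBR2; PRE10, PRE3, PUP1, RPT2, RPT5, RPN11, RPN12, RPN14, YAP1, HSF1, PDR1 and some further genes named in the text were added after their values were seen. The members and lists were chosen with earlier results of these data known. Alternatives covered the pseudocount, the filter, scaling, the replicate block, the groups in the fit, each library left out and centring on the chromosome arm.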

Additional observations from a re-analysis of the deposited data

Results flagged for a closer look

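The slx5 effect differed between strains with and without Ulp2 for 14 of the 33 genes by the interaction term of the limma fit. The value is the log2 difference of the double mutant from ulp2 minus that of slx5 from WT. It was above 0 for RPT1 at 0.49 (adjusted p = 1.6e-05) and PRE5 at 0.36 (adjusted p = 0.00663). Among core subunits below 0 it was -0.43 for PUP2, -0.42 for PRE9, -0.41 for PRE7, -0.26 for PUP1 and -0.2 for PRE4. In the regulatory particle it was -0.96 for RPN13, -0.35 for RPN12, -0.33 for RPT5, -0.3 for RPT4, -0.23 for RPN1 and -0.15 for RPT3, and for RPN4 it was -0.36. PRE4, RPN1 and RPT3 lost their call when single libraries were left out, at -0.15 to -0.21 for PRE4 without WT replicate 2, ulp2 replicate 0 or any slx5 or double-mutant library, at -0.17 to -0.24 for RPN1 and at -0.13 to -0.16 for RPT3. RPN13, RPT1 and PRE5 lie on chromosome arms that were shifted in ulp2 or in the double mutant, and after arm centring RPN13 stood at -0.25 (adjusted p = 0.146), RPT1 at -0.12 and PRE5 at -0.06, none of them called. PRE9 (-0.32) and PRE4 (-0.15) also lost their calls after arm centring. The contrast coincides with the split of the libraries by expressed mating type, and they cannot be told apart. Groups of 3 libraries were not screened for single outlying libraries.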

How the results depend on the processing

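The counts of called genes stayed within 1.5 times the reported count under most settings. The exceptions among the 33 genes were ulp2 against WT with quantile normalization (14 against 8), set1 against WT with only the compared groups in the fit (6 against 14), ulp2 against set1 in that fit (9 against 16), and the double mutant against slx5 with arm centring (3 against 12). Among the 34 pathway genes, set1 gave 10 against 17 with only the compared groups. With single libraries left out, the counts were 7 to 11 for ulp2, 23 to 27 for slx5, 9 to 16 for set1 and 16 to 23 for the double mutant against WT. They were 12 to 19 for the double mutant against ulp2, 7 to 10 against slx5 (7 without double-mutant replicate 0), 9 to 20 for ulp2 against set1, 12 to 18 for slx5 against set1 and 11 to 17 for the interaction. Single libraries moved the count by over 1.5 times to that 7, to 9 for set1 without WT replicate 1, and for ulp2 against set1 9 without ulp2 replicate 2 and 10 without set1 replicate 0. Of the called genes, 22 of 25 in slx5, 15 of 20 in the double mutant, 8 of 14 in set1 and 5 of 8 in ulp2 kept their call with every library left out; for the pathway these were 24 of 26, 21 of 22, 12 of 17 and 14 of 18. Arm centring reversed, without a call, RPN13 in the double mutant against ulp2 (0.064), PRE8 (-0.050), PRE5 (-0.12) and RPT1 (-0.083) against slx5, PRE5 (-0.058) and RPT1 (-0.12) in the interaction, and IRC25 in ulp2 (-0.12) and ADD66 in the double mutant (-0.038). With a call it put RPS31 in ulp2 (-0.58) and MUB1 in the double mutant (-0.24) below WT. Quantile normalization reversed UBR2 in slx5 (-0.091, not called) and RPL40B in the double mutant (0.27, called). The causes of these reversals beyond the subtraction of the arm median were not tested. Quantile normalization moved the median of all genes in the double mutant by -0.14 and the share of calls that were higher from 51.0% to 39.2% in ulp2, 50.5% to 40.5% in slx5, 59.3% to 48.6% in set1, 52.8% to 39.9% in the double mutant, and 56.2% to 44.6% in the double mutant against slx5 (42.5% with median scaling). A replicate block in the fit gave 10, 25, 15 and 21 calls in ulp2, slx5, set1 and the double mutant against WT, 18, 12, 16 and 18 in the comparisons among mutants in the order above, and 12 in the interaction. The numbers do not pair the libraries: deviations of same-numbered libraries correlated between -0.128 and 0.140 over 30 pairs, and 6 of 15 libraries correlated best with their own number. Absolute depth is unknown, so counting error could not be separated from the spread between libraries.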
